A study of Mus musculus with 30 samples.

Results

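Cell division genes are the genes whose products copy DNA and separate chromosomes, and their transcripts in developing cortex come mainly from progenitors that are still dividing. The set described here is a list of 37 named mouse genes, and no measured value entered its rule. A gene was taken where a probe set naming only that gene stood in both deposited tables, and the probe set with the highest mean was used. This found 36 of the 37 members, among 16553 genes measured in both tables. Ccnb1, cyclin B1, was not analysed here. By role, the members measured were 10 genes of DNA replication and nucleotide supply, 9 mitotic cyclins and kinases, 7 centromere, kinetochore and chromosomal passenger genes, 6 spindle motor and midzone genes, 2 genes of mitotic exit, and the proliferation antigen Mki67 with the topoisomerase Top2a.

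The study compared mouse cortex without and with Tbr1, a T-box factor of postmitotic, mostly deep-layer neurons. At E14.5 the neocortex was measured in 3 Tbr1 -/- (KO) samples and 3 wild-type (WT) samples. At P0.5 there were 4 KO and 4 WT samples of each of 3 brain regions, frontal, parietal and occipital. All mice were of the CD1 strain, the line was kept as heterozygotes, and null animals came from crosses between heterozygous parents, so the allele was missing from every cell and not from one cell type. The labels gave neither the sex, nor the number of animals behind a sample, nor whether same-numbered samples of different regions shared an animal. P-values therefore measure the spread between these samples. All values are log2 signals, and the 2 stages were measured on separate tables whose levels are not compared.

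Dividing progenitors of the cortex are radial glia next to the ventricle and intermediate progenitors above them. As a cell enters S phase, E2F factors are released from pocket proteins and switch on the helicase subunits Mcm2 to Mcm7, the clamp Pcna and the nucleotide enzymes Rrm1, Rrm2 and Tyms. Later, in G2 and mitosis, the MuvB complex with B-Myb and FoxM1 drives the cyclins, Cdk1, the aurora and polo kinases and the spindle genes. In resting cells the same MuvB core, with the pocket protein p130, E2F4 and DP, forms the repressor DREAM. In human cells its subunit LIN54 binds the CHR element, TTTGAA, and NF-Y binds CCAAT boxes in many of these promoters.

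The promoters of 6 members are shown, and they differ in which of these elements they hold. Each stretch is 300 bases of the RefSeq promoter table (build GRCm38.p6), 5′ to 3′ on the strand of the gene, and runs from upstream of the start site to just past it. Capitals mark every match, on either strand, to the box CCAAT, to the element TTTGAA or to an E2F form, which is TTTCCCG, the variant TTTCGCG or the variant TTTGGCG. Mki67 is followed by the member of each role, up to 4, with the smallest p for frontal against occipital tissue in WT among those with an entry in the table. For the cyclins and kinases this was Cdk1, since Aurkb had no entry. Mcm3 was added after its values were seen.
Mki67, chr7:135716330-135716629, minus strand: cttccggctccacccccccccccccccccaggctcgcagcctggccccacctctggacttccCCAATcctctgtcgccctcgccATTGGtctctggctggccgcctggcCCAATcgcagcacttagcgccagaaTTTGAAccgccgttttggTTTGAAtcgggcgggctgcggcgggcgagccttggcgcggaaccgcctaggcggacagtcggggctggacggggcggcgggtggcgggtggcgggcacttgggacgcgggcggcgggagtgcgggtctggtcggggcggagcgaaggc
Tyms, chr5:30073576-30073875, minus strand: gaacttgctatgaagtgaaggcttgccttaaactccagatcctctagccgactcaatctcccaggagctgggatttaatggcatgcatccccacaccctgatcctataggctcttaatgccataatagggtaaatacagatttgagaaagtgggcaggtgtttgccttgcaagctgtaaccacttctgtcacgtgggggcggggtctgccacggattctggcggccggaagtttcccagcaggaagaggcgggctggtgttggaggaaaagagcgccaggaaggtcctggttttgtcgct
Mcm3, chr1:20820263-20820562, minus strand: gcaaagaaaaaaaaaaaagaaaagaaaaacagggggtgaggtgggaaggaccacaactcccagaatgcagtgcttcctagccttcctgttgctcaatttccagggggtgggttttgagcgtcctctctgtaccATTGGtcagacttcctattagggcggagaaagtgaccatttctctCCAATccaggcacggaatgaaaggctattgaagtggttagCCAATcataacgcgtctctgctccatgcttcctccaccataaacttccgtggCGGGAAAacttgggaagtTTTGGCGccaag
Cdk1, chr10:69352863-69353162, minus strand: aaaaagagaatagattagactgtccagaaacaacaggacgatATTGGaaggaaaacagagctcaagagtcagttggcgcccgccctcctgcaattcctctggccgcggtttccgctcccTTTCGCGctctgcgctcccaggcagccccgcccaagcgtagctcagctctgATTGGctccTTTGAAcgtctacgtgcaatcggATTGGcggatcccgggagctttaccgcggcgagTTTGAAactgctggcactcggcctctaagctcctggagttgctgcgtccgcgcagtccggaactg
Birc5, chr11:117848987-117849286, plus strand: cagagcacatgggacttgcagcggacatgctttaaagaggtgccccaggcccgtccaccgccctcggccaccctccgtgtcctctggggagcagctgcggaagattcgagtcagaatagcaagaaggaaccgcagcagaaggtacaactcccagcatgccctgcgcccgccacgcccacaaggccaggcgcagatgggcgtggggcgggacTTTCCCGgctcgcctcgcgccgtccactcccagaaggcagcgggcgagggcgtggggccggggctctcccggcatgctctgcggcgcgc
Prc1, chr7:80294201-80294500, plus strand: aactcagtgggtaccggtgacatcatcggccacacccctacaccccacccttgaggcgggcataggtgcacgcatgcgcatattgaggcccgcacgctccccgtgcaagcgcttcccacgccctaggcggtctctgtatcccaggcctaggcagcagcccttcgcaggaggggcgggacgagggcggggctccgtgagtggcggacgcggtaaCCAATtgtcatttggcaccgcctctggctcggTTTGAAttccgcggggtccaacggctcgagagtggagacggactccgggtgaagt

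Mki67 and Cdk1 each held 3 CCAAT and 2 TTTGAA matches, with 1 E2F form in Cdk1, and Prc1 held 1 CCAAT and 1 TTTGAA. Mcm3 held 3 CCAAT matches, no TTTGAA and 2 E2F forms. Birc5 held only 1 E2F form, and Tyms had no match of any kind in this window. Of the 36 measured members 31 had an entry in the table. CCAAT stood in 26 of these (83.9%), against 37.9% of all 27025 promoters of that length. TTTGAA stood in 18 (58.1%), against 18.1% of all. An E2F form stood in 8 (25.8%), against 5.72% of all, and CCAAT together with TTTGAA in 17 (54.8%), against 7.12%. In the member promoters 4 matches overlapped another match. TTTGAA was found in 1 of 9 replication promoters and in 6 of 7 of the cyclins and kinases, while CCAAT was found in 8 of 9 and 7 of 7. A match is a description of the letters and no sign that a factor was bound.

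Tbr1 itself was lower in all KO groups, without overlap with WT. At E14.5 its signal was 7.23 to 8.69 in KO and 8.89 to 9.36 in WT, a difference of -1.29 that was not called (limma adjusted p = 0.85). At P0.5 the regional differences lay between -0.58 and -0.84, and all 3 were called. Array medians spanned 5.12 to 5.15 (E14.5) and 7.42 to 7.52 (P0.5), and precision is limited by how few arrays there are. The mean signal of 3 Y-linked genes was 5.39 ± 0.41 in frontal KO and 9.04 ± 0.07 in frontal WT samples (SD, n = 4 each), so sex and genotype moved together there. Over the regions, too, all 3 were called lower in KO (median -1.83), against 7.46% of all genes called. In parietal and occipital tissue 0 of the 3 were called (medians -1.04 and -0.95). For KO replicate 1 the mean of the Y-linked genes was 5.09 (frontal), 9.11 (parietal) and 9.32 (occipital). In the same order it was 5.28, 5.42 and 9.18 for KO replicate 2, and 5.2, 9.05 and 5.88 for KO replicate 3. KO replicate 4 had 5.99, 5.36 and 9.02, and WT replicate 2 had 9.02, 5.76 and 9.44. Each of these numbers joined low and high levels, so none of them stood for 1 animal throughout.

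No cell division gene passed the test in any of 8 comparisons: KO against WT at E14.5, in each P0.5 region and over the regions, frontal against occipital tissue in each genotype, and the interaction. A call here means a limma p below 0.05 after Benjamini-Hochberg adjustment over all genes of the comparison. At E14.5 this rule called 0.0% of all genes, so the members' count of 0 of 36 is that of the whole table. At P0.5 it called 7.52% of all genes for KO against WT in frontal tissue, 1.81% in parietal tissue, 1.34% in occipital tissue and 7.46% over the regions. The rule called 3.22% for frontal against occipital tissue in KO, 6.03% in WT, and 0.416% for the interaction. In these tissues fewer dividing cells and less RNA per cell cannot be told apart.

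**Figure D1:**
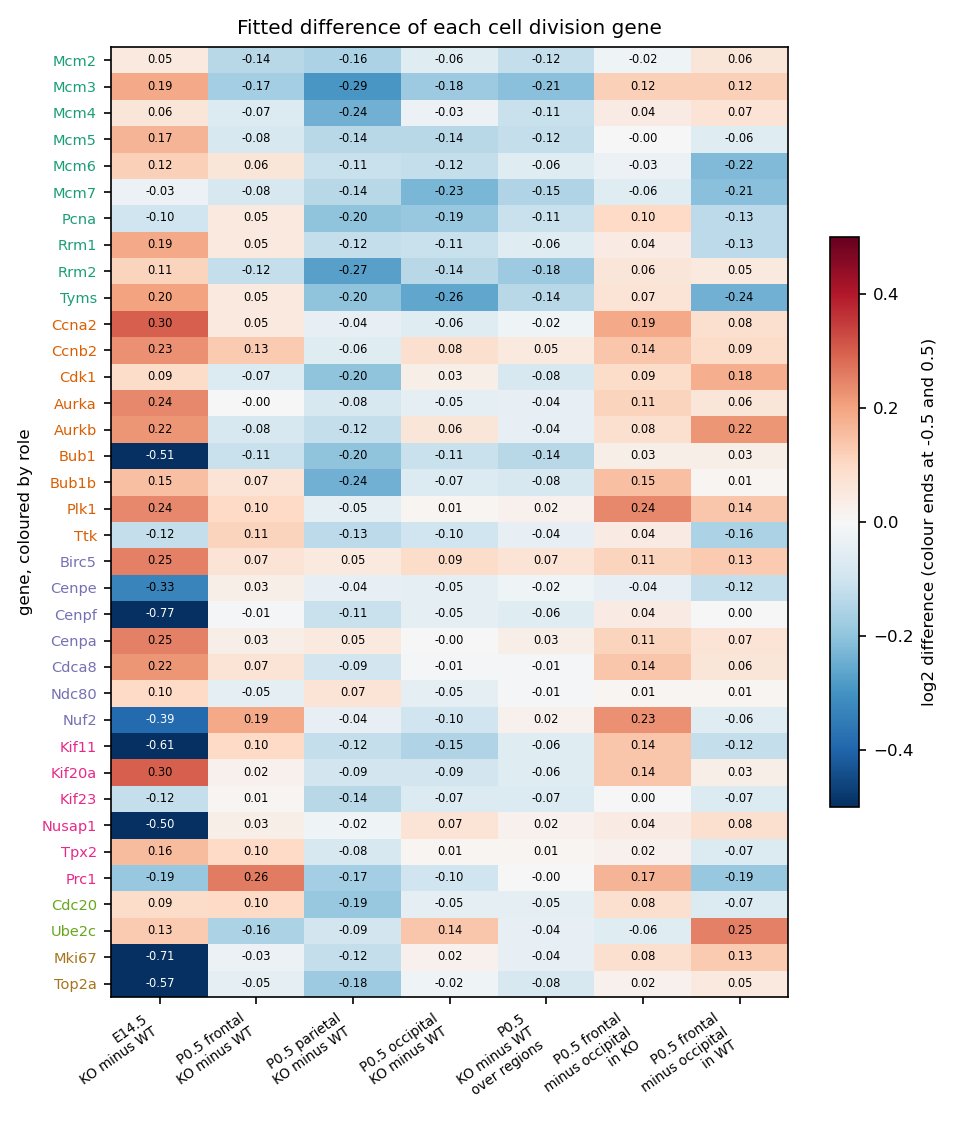
Heat map of the fitted log2 difference of each of the 36 members (down the page, names coloured by role) in 7 comparisons (across), with each value printed, red above 0 and blue below. The widest range was at E14.5, from -0.77 to 0.30, and the 10 replication genes were all below 0 in parietal tissue, in occipital tissue and over the regions.

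Over the regions at P0.5 the 95% interval lay within a 1.5-fold change either way for 36 of 36 members, against 98.1% of all genes. The same held for 34 of 36 in frontal, 34 in parietal and 35 in occipital tissue, against 91.7%, 95.7% and 95.7% of all genes. At E14.5, fitted without pairs, it held for 4 of 36 members, against 58.5% of all genes. For the other members the interval reached past that size. The widest bound was that of Cenpf at E14.5, which reached down to -2.29.

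At E14.5 the members had differences of both signs. Of the 36, 23 lay above 0 and 13 below, with a median KO minus WT difference of 0.11, against 0.06 over all genes, of which 65.5% lay above 0. No member had an unadjusted p under 0.05, against 5.76% of all genes. The 8 lowest differences were those of Cenpf (-0.77), Mki67 (-0.71), Kif11 (-0.61), Top2a (-0.57), Bub1 (-0.51), Nusap1 (-0.50), Nuf2 (-0.39) and Cenpe (-0.33). The highest was 0.30, for Ccna2 and Kif20a. With the same-numbered samples as pairs, 0 of 36 members were called as well. KO was above WT in all 3 pairs for 12 members, Aurka, Aurkb, Plk1, Birc5, Cenpa, Cdca8, Cdc20, Ube2c, Ccna2, Ccnb2, Tpx2 and Mcm5, by 0.01 to 0.70. It was below WT in all 3 pairs for Top2a, and 23 members had both signs. KO was above WT for 13 members in pair 1, 33 in pair 2 and 26 in pair 3. Counts by pair were not taken over all genes, of which 65.5% had a difference above 0, so no rise is read from them.

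Cenpf, a kinetochore protein of G2 and mitosis, had signals of 4.83, 7.72 and 6.57 in the KO samples, against 7.00, 7.56 and 6.88 in the WT samples. The KO samples lay both below and above the WT samples. The difference was -0.77 (SE 0.649), a 1.71-fold lower mean with a limma adjusted p of 0.968. Kif11, the motor that pushes the spindle poles apart, had 5.28, 7.05 and 6.67 in KO and 6.90, 7.33 and 6.59 in WT. Its difference of -0.61 (SE 0.446) had the smallest adjusted p of the set, 0.954 in limma. Top2a, which untangles DNA before chromosomes separate, had 8.10, 9.84 and 9.44 in KO, against 9.58, 10.01 and 9.51 in WT. KO replicate 1 was the lowest sample in all 3 genes. Cenpe, a kinetochore motor, had 5.61, 6.82 and 6.20 in KO and 6.62, 6.48 and 6.52 in WT, and here too KO replicate 1 was lowest. Mki67, the antigen Ki-67 that coats mitotic chromosomes, had 6.28, 8.58 and 6.65 in KO, against 8.57, 8.17 and 6.90 in WT, and the groups overlapped.

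Single samples set the E14.5 median. Without KO replicate 1 it was 0.26, and without KO replicate 2 it was -0.10. Without WT replicates 1, 2 and 3 in turn it was 0.05, 0.24 and -0.01. KO replicate 2 was the highest of the KO samples for 36 of 36 members, against 23.6% of all genes. KO replicate 1 was the lowest for 24, against 27.1% of all genes. It was the highest KO sample for 0 of 36 members but for 56.8% of all genes, so it stood out across the whole table. WT replicate 2 was the highest of the WT samples for 31, against 34.3% of all genes. The mean of 7 meningeal markers was 8.66 ± 0.76 for the 3 KO samples and 7.33 ± 0.14 for the 3 WT samples (SD). The ranges were 7.82 to 9.31 in KO and 7.24 to 7.49 in WT. The mean of 7 cortical neuron markers was 9.46 ± 0.35 in KO and 10.3 ± 0.36 in WT. Choroid plexus markers were above 0 for 5 of 5 (median 0.79). In each of these 3 lists 0 markers were called, as over the whole table. Radial glia markers were at 8.41, 9.34 and 8.87 in KO replicates 1, 2 and 3, against 8.77, 8.85 and 8.73 in WT. Their part in the members' values was not tested. Several probe sets were deposited for 26 members, and for 12 of these the probe sets differed in the sign of the E14.5 difference. For Cenpf the 3 probe sets gave -0.77, -0.08 and 0.05, at mean signals of 6.76, 5.37 and 4.41. Array medians were 5.12 to 5.15, so the last 2 were dim.

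**Figure D2:**
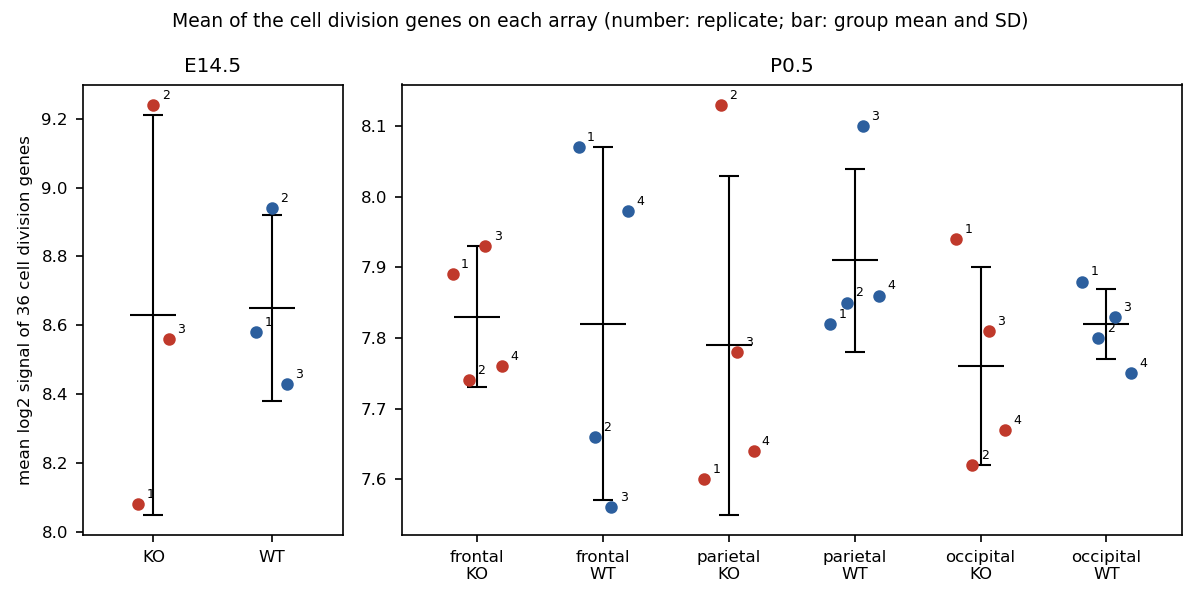
Mean log2 signal of the 36 members on each array (points, numbered by replicate; red KO, blue WT), with group mean and SD (bars), at E14.5 (left) and P0.5 (right). KO and WT overlap in every region and at both stages, and KO replicate 2 stands highest at E14.5 (9.24) and in parietal tissue (8.13).

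The mean of all 36 members on an array gives the same picture. At E14.5 the 3 KO samples averaged 8.63 ± 0.58 and the 3 WT samples 8.65 ± 0.27 (SD). With 4 samples a group at P0.5, frontal KO had 7.83 ± 0.10 against 7.82 ± 0.25 for frontal WT, parietal KO had 7.79 ± 0.24 against 7.91 ± 0.13 for parietal WT, and occipital KO had 7.76 ± 0.14 against 7.82 ± 0.05 for occipital WT (SD). Ordered from high to low, the P0.5 groups ran from parietal WT to frontal KO, frontal WT, occipital WT, parietal KO and occipital KO. KO and WT overlapped in each region, and no neighbours in this order lay further apart than their SD. On the linear scale the arrays of 1 group differed by up to 2.23-fold at E14.5, in KO.

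**Figure D3:**
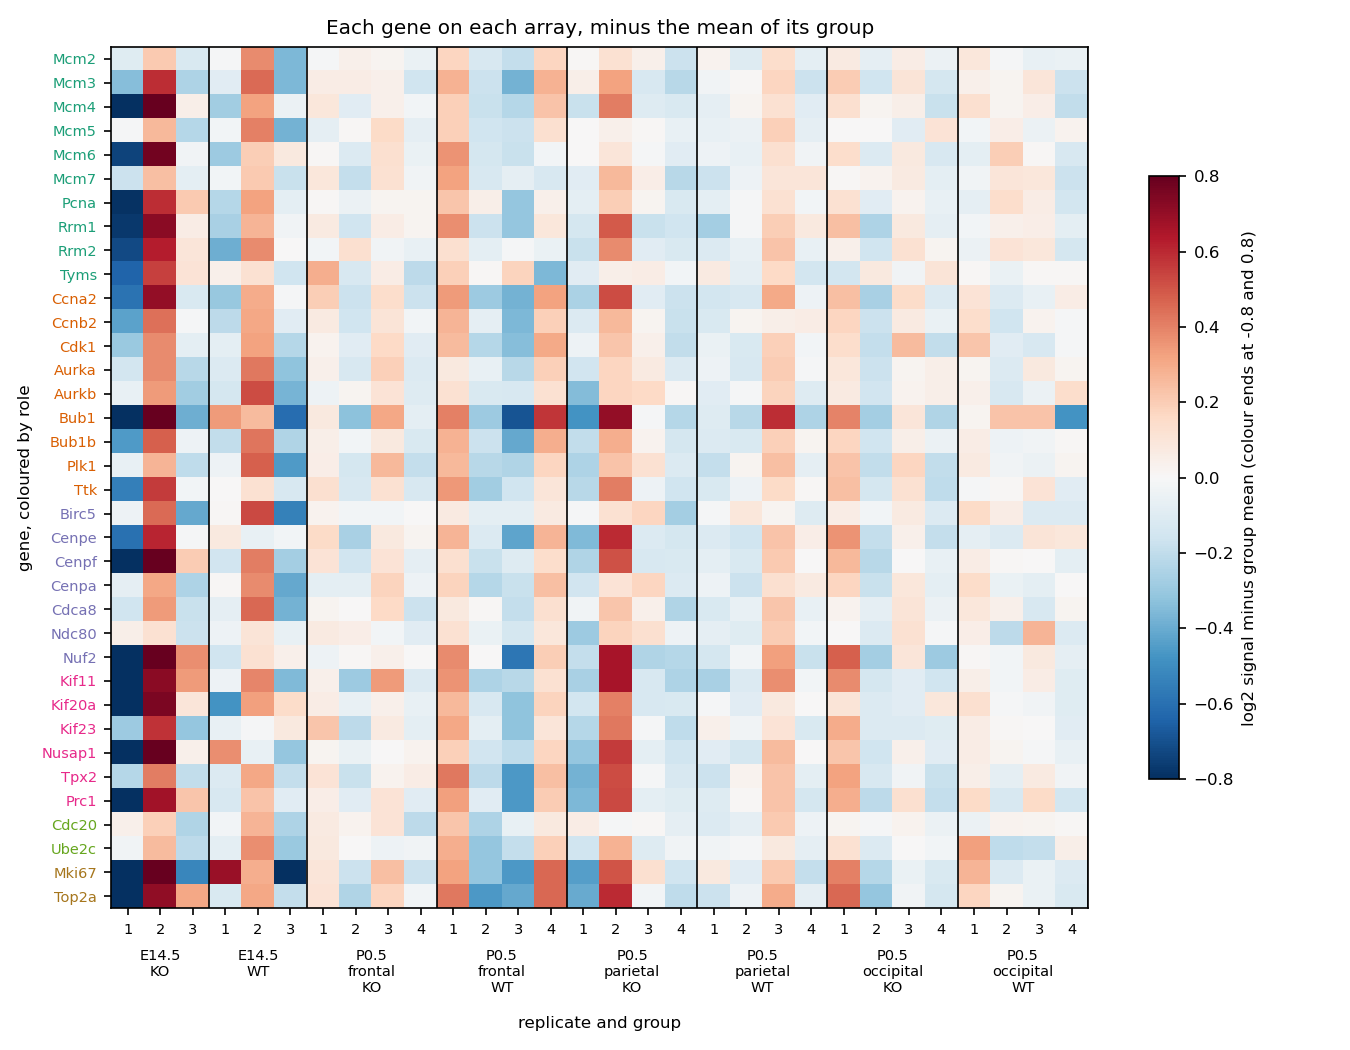
Heat map of the log2 signal of each member (down the page, names coloured by role) on each of the 30 arrays (across, by group and replicate), minus the mean of its group, red above it and blue below. E14.5 KO replicate 2 is highest of its group for 36 of 36 members and parietal KO replicate 2 for 32, and frontal WT replicate 3 is lowest for 25.

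In several groups 1 sample was the highest or lowest for most members. In parietal tissue KO replicate 2 was the highest KO sample for 32 of 36 members (30.2% of all genes), and WT replicate 3 the highest WT sample for 34 (33.4% of all genes). In occipital tissue KO replicate 1 was highest for 27 members. In frontal tissue WT replicates 1 and 4 were highest for 22 and 14 members and WT replicate 3 lowest for 25. Occipital WT had no such sample, since replicate 1 was highest for 17 members, replicate 3 for 11 and replicate 4 lowest for 17. Meningeal markers averaged 9.13 and 9.74 in frontal WT replicates 1 and 4, against 7.45 and 7.08 in replicates 2 and 3. Intermediate progenitor markers averaged 7.81 in parietal KO replicate 2, against 7.37, 7.56 and 7.43 in the other parietal KO samples, and 8.05 in parietal WT replicate 3, against 7.59, 7.72 and 7.66 in the other parietal WT samples. The part of these markers in the members' values was not tested.

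Most members were also more variable within groups than the median gene. Their median SD within groups was 0.434 at E14.5, against 0.188 over all genes, and 35 of 36 lay above 0.188. At P0.5 it was 0.187, against 0.136 over all genes, with 31 of 36 above it. All genes include dim ones, and the members were not compared with genes of like signal. At P0.5 Bub1, a checkpoint kinase at kinetochores, varied most (SD 0.418), followed by Top2a (0.327), Nuf2 of the kinetochore (0.305) and Mki67 (0.303). Mcm5 (0.11), Mcm2 and Birc5 (0.113 each) varied least. By role the median SD at P0.5 was 0.153 for the replication genes and 0.23 for the spindle genes.

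At P0.5 the genes of S phase lay below 0 over the regions, by small differences. Over the regions the 3 same-numbered samples of a genotype were averaged to give 4 KO and 4 WT values. By the Y-linked levels, the samples behind each KO value did not all come from the same animals. The averages are therefore not single animals, and their spread is not that between animals. All 10 replication genes were below 0, with a median of -0.12. Of the other 26 members 19 were below 0 and 7 above, with a median of -0.04. Over all genes 56.6% lay below 0 and the median was -0.01. None of the 10 passed the test (0 of 36 members called, against 7.46% of all genes). At an unadjusted p under 0.05 stood 7 of 36 members, against 19.2% of all genes, so the whole set was near the share of all genes. These were 7 of the 10 replication genes, Mcm3, Rrm2, Mcm7, Mcm5, Pcna, Mcm2 and Tyms, and 0 of the other 26.

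**Figure D4:**
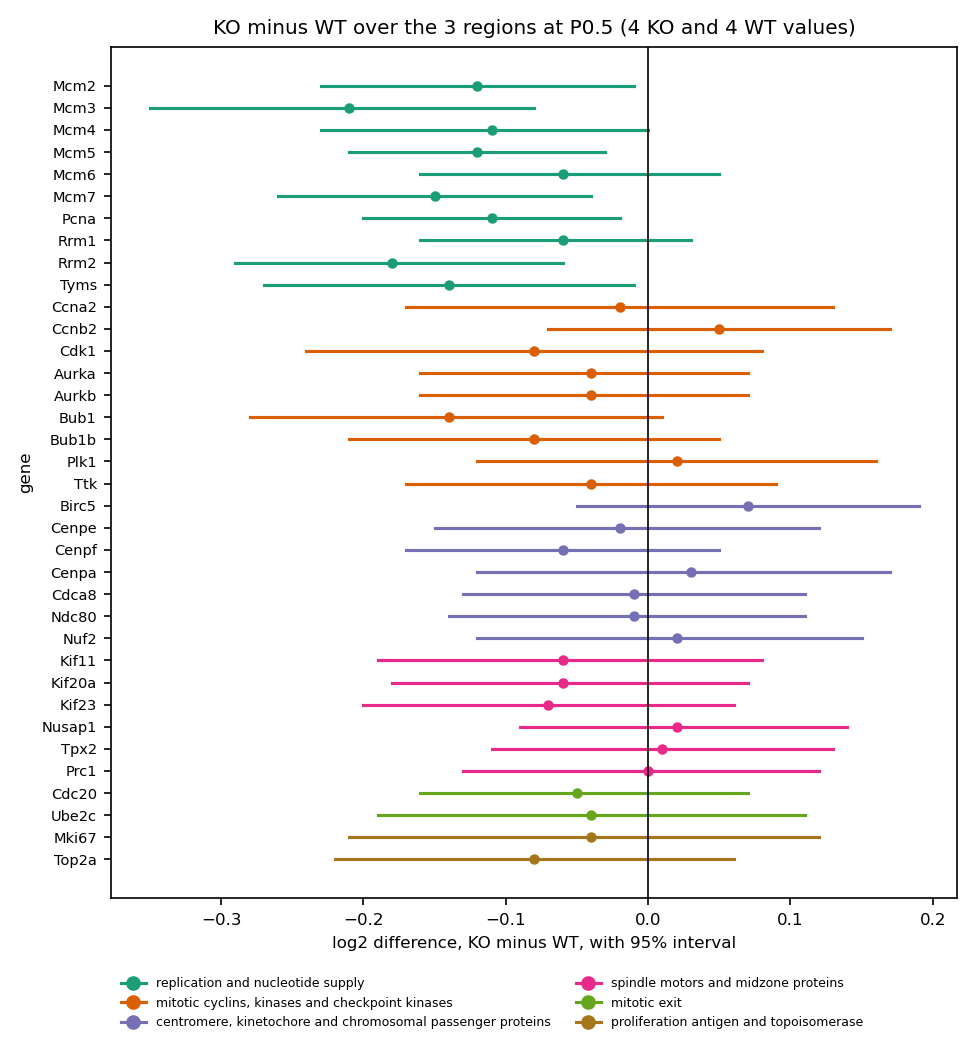
KO minus WT log2 difference of each member over the 3 P0.5 regions (points) with its 95% interval (lines), coloured by role. All 10 replication genes lie left of 0, from -0.21 for Mcm3 to -0.06 for Mcm6 and Rrm1, and the other members lie between -0.14 and 0.07.

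Mcm3, a subunit of the MCM helicase, had averages over the regions of 7.62, 7.58, 7.51 and 7.33 in KO, against 7.82, 7.68, 7.69 and 7.71 in WT. The KO values were all below the WT values. The difference was -0.21 (SE 0.0625), a 1.16-fold lower mean, with a limma adjusted p of 0.0529. Rrm2, the small subunit of ribonucleotide reductase, had 8.44, 8.61, 8.49 and 8.44 in KO and 8.66, 8.66, 8.78 and 8.59 in WT. KO replicate 2 overlapped with the lowest WT value, and the difference was -0.18 (SE 0.0545, limma adjusted p = 0.0704). Mcm7, another helicase subunit, had 9.06, 9.09, 9.14 and 8.94 in KO, against 9.25, 9.19, 9.25 and 9.14 in WT, a difference of -0.15 with a limma adjusted p of 0.101. Its highest KO and lowest WT values were equal to 2 decimals. Mcm5 had 8.10, 8.14, 8.14 and 8.11 in KO and 8.28, 8.19, 8.23 and 8.27 in WT, a gap between the groups of small values with little spread (-0.12, limma adjusted p = 0.131). Pcna, the sliding clamp of the replication fork, had 10.16, 10.16, 10.17 and 10.09 in KO, against 10.28, 10.32, 10.22 and 10.21 in WT.

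The KO values lay wholly below the WT values for 5 members, Mcm2, Mcm3, Mcm5, Mcm7 and Pcna, and wholly above them for 0. Over all genes the groups did not overlap for 12.5%, a share near that of the 36 members. The replication genes stayed below 0, 10 of 10, in each of 12 alternatives (array scaling, array weights, the mean of probe sets, the Y-linked covariate and 8 left-out samples), with medians from -0.14 to -0.10. Of these, the mean of probe sets could move only Pcna, since the other replication genes had 1 probe set each at P0.5. The other 26 members were below 0 for 11 to 23 of 26 in those alternatives, with the 11 without KO replicate 4. With the Y-linked mean as covariate the replication median was -0.14 and 0 of 36 members were called. Each fit over the regions with this covariate took the 24 P0.5 arrays without averaging, so arrays that may share an animal counted singly. Beside these values, 7 of 7 blood vessel markers were below 0 (median -0.35, 1 called), 5 of 7 meningeal markers were below 0 (median -0.44, 0 called), and the part of either in the members' values was not tested. The count of called members did change: array weights called 4 (Mcm3, Mcm7, Rrm2 and Tyms; 9.5% of all genes), and leaving out the dimmest 30% of genes called Mcm3 (10.9% of the genes left), as did the replicate number as a block (6.51% of all genes). Leaving out the samples of KO replicate 1 called Mcm3 (4.83% of all genes), of KO replicate 2 called Rrm2 (6.66%), and of WT replicate 4 called Rrm2 and Tyms (7.17%).

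**Figure D5:**
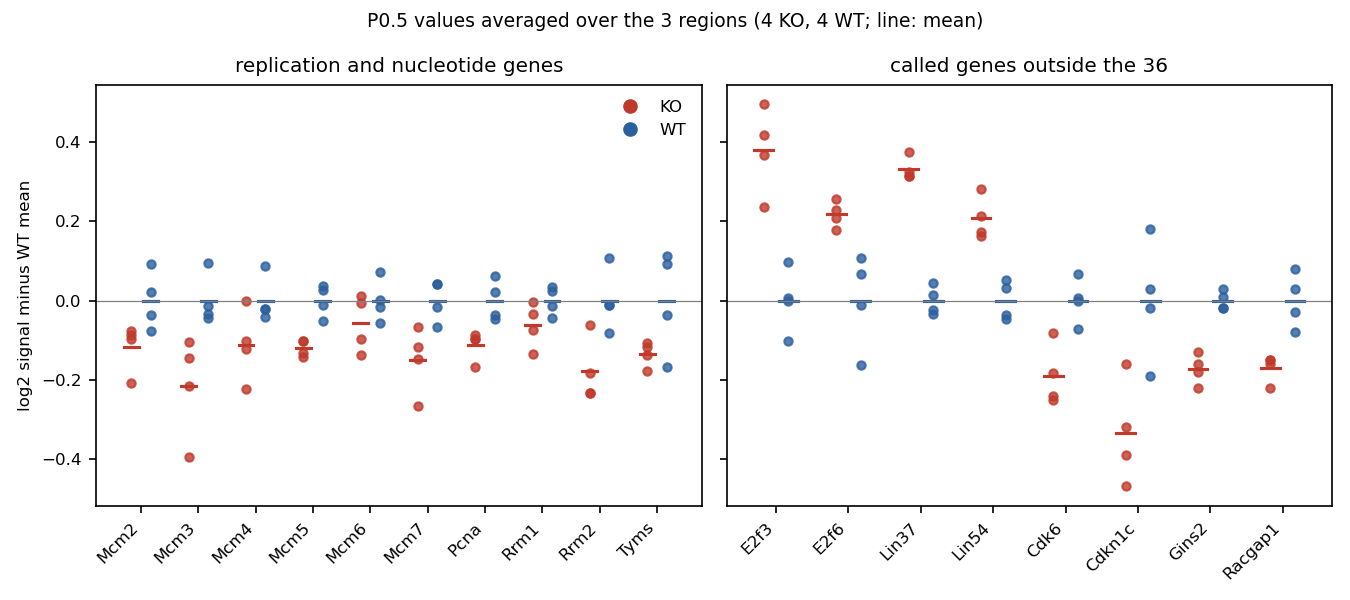
P0.5 log2 signals averaged over the 3 regions, each minus the WT mean of its gene (points, 4 KO in red at the left of each gene and 4 WT in blue; lines, means). The left panel holds the 10 replication genes, where the mean differences lie between -0.21 and -0.06, and the right panel 8 cell cycle genes outside the 36 that were called over the regions.

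In frontal tissue the replication genes were 4 above 0 and 6 below, with a median of -0.07, and the members as a whole 21 above and 15 below, with a median of 0.03, against -0.03 over all genes. Leaving out 1 frontal sample at a time moved the members' median between -0.07 and 0.09. With the Y-linked covariate the balance turned, with 7 of 10 replication genes and 17 of the other 26 members below 0 and a median of -0.05. With array weights 5 of 10 and 3 of 26 were below 0 (median 0.08). No member had an unadjusted p under 0.05, against 27.5% of all genes. Mcm2 had 8.08, 8.13, 8.11 and 8.04 in frontal KO and 8.39, 8.09, 8.03 and 8.39 in frontal WT (-0.14, SE 0.0833, limma adjusted p = 0.276). The high WT values were those of replicates 1 and 4, which also had the high meningeal markers. Mcm3 had 7.65, 7.65, 7.63 and 7.43 in KO, against 8.04, 7.59, 7.38 and 8.04 in WT, again with replicates 1 and 4 high. Prc1, which bundles microtubules at the spindle midzone, had 7.94, 7.80, 8.0 and 7.80 in KO and 7.96, 7.54, 7.17 and 7.83 in WT. Its difference of 0.26 (SE 0.16) was the largest in frontal tissue, where WT replicates 2 and 3 were the lowest samples. Ube2c, the ubiquitin-conjugating enzyme of the anaphase-promoting complex, had 7.61, 7.53, 7.49 and 7.5 in KO, against 7.99, 7.39, 7.51 and 7.89 in WT.

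In parietal tissue 33 of 36 members were below 0 and 3 above, with a median of -0.12, against 54.3% of all genes below 0 and a median of -0.01. All 10 replication genes and all 9 cyclins and kinases were below 0, with medians of -0.18 and -0.12. At an unadjusted p under 0.05 stood 5 members, Rrm2, Pcna, Mcm3, Mcm4 and Cdc20, against 9.32% of all genes. Rrm2 had 8.33, 8.89, 8.42 and 8.39 in parietal KO and 8.66, 8.71, 9.0 and 8.71 in parietal WT, so KO replicate 2 lay inside the WT range and the other KO samples below it. The difference was -0.27 (SE 0.101, limma adjusted p = 0.295). Pcna had 10.05, 10.33, 10.15 and 10.01 in KO, against 10.25, 10.32, 10.45 and 10.31 in WT (-0.20, SE 0.0886). Mcm3 had 7.52, 7.79, 7.34 and 7.25 in KO and 7.74, 7.78, 7.94 and 7.60 in WT (-0.29, SE 0.131). KO replicate 2 was the high KO sample in these 3 genes.

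Cdc20, the activator of the anaphase-promoting complex, did not follow that sample. It had 7.54, 7.47, 7.49 and 7.41 in parietal KO, against 7.56, 7.60, 7.88 and 7.63 in parietal WT. The KO values were all below the WT values, as they were for Mcm5, and 7.41% of all genes had no overlap. Its difference was -0.19 (SE 0.0875, limma adjusted p = 0.503). The median of the members was -0.04 without parietal KO replicate 1, -0.07 without KO replicate 4 and -0.06 without WT replicate 3. Without KO replicate 2 it was -0.23 and 1 member, Rrm2, was called (-0.39, limma adjusted p = 0.0139), with 1.64% of all genes called. Array weights called 6, Bub1b, Mcm3, Mcm4, Mcm7, Pcna and Rrm2, and 6.22% of all genes.

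In occipital tissue 27 members were below 0 and 9 above, with a median of -0.06, against 45.9% of all genes below 0 and a median of 0.01. Without occipital KO replicate 1 the members' median was -0.13, without KO replicate 2 it was -0.01 and without KO replicate 4 it was -0.03. The replication genes were again 10 of 10 below 0 (median -0.14), with Mcm4 (-0.03) crossing to above 0 when KO replicate 4 or WT replicate 1 was left out. At an unadjusted p under 0.05 stood Tyms, Mcm7 and Pcna, against 10.8% of all genes. Tyms, which makes the thymidylate for DNA synthesis, had 7.07, 7.30, 7.19 and 7.32 in occipital KO and 7.49, 7.43, 7.49 and 7.49 in occipital WT. Its difference was -0.26 (SE 0.108, limma adjusted p = 0.354), and all KO values were below the WT values. Mcm7 had 9.08, 9.10, 9.14 and 8.99 in KO, against 9.28, 9.41, 9.40 and 9.14 in WT, with the highest KO and lowest WT value equal to 2 decimals (-0.23, SE 0.104). Only these 2 members had no overlap, against 6.26% of all genes. Pcna had 10.22, 10.01, 10.13 and 10.04 in KO and 10.22, 10.43, 10.35 and 10.14 in WT, and Mcm5 had 8.12, 8.12, 8.03 and 8.23 in KO, against 8.24, 8.31, 8.21 and 8.29 in WT.

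Between frontal and occipital tissue the members' differences lay between -0.06 and 0.24 in KO and between -0.24 and 0.25 in WT. In KO the frontal minus occipital difference was above 0 for 30 of 36 members and below 0 for 6, with a median of 0.07, against -0.02 over all genes. The Y-linked mean differed too, at 5.39 ± 0.41 in frontal KO and 8.35 ± 1.65 in occipital KO (SD, n = 4 each), and with it as covariate the members' median was 0.01. Of 12 radial glia markers 11 were below 0 (median -0.26, 2 called), and 6 of 7 meningeal markers were above 0 (median 0.49, 0 called). The part of these in the members' values was not tested. Without occipital KO replicate 1 the median was 0.13, without occipital KO replicate 2 it was 0.02 and without frontal KO replicate 3 it was 0.04. No member had an unadjusted p under 0.05, against 2883 of all 19938 genes. Plk1, the polo-like kinase of mitotic entry, had 8.06, 7.87, 8.27 and 7.82 in frontal KO and 8.0, 7.57, 7.94 and 7.57 in occipital KO (0.24, SE 0.131, limma adjusted p = 0.431). Cdca8, the borealin of the chromosomal passenger complex, had 7.38, 7.36, 7.52 and 7.19 in frontal KO, against 7.25, 7.15, 7.32 and 7.17 in occipital KO. Ccnb2, a mitotic cyclin, had 8.04, 7.81, 8.07 and 7.95 in frontal KO and 7.99, 7.65, 7.89 and 7.77 in occipital KO. In all 3 genes the regions overlapped. Birc5, survivin of the chromosomal passenger complex, had 6.94, 6.89, 6.89 and 6.91 in frontal KO, against 6.86, 6.78, 6.87 and 6.69 in occipital KO. It was the member without overlap (0.11), against 10.1% of all genes.

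In WT the difference was above 0 for 22 members and below 0 for 14, with a median of 0.03, against 0.02 over all genes. Leaving out 1 sample at a time moved that median between -0.05 (without frontal WT replicate 1) and 0.13 (without frontal WT replicate 3). Tyms, Mcm6 and Aurkb stood at an unadjusted p under 0.05, against 26.7% of all genes. Tyms had 7.42, 7.24, 7.41 and 6.87 in frontal WT and 7.49, 7.43, 7.49 and 7.49 in occipital WT, with no overlap (-0.24, SE 0.108, limma adjusted p = 0.156), which held for 12.6% of all genes. Mcm6 had 8.85, 8.35, 8.31 and 8.47 in frontal WT, against 8.63, 8.91, 8.72 and 8.58 in occipital WT, where frontal replicate 1 was the high one (-0.22, SE 0.0977). Without that sample 2 members, Mcm6 (-0.33, limma adjusted p = 0.0219) and Mcm7, were called, and 9.61% of all genes. Aurkb, the kinase of the chromosomal passenger complex, ran the other way, with 8.02, 7.78, 7.77 and 8.02 in frontal WT and 7.72, 7.55, 7.63 and 7.82 in occipital WT (0.22, SE 0.101). Ube2c had 7.99, 7.39, 7.51 and 7.89 in frontal WT, against 7.78, 7.25, 7.26 and 7.5 in occipital WT (0.25, SE 0.12).

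The interaction asked whether KO and WT had the same regional difference between frontal and occipital tissue. It was called for 0 of 36 members, and none had an unadjusted p under 0.05, against 20.1% of all genes. Tyms had the smallest adjusted p, 0.254 in limma, with a frontal minus occipital difference of 0.07 in KO and -0.24 in WT (interaction 0.31, SE 0.152). Pcna had 0.10 in KO and -0.13 in WT (interaction 0.24, SE 0.125). Prc1 had 0.17 in KO and -0.19 in WT, and its interaction of 0.36 (SE 0.226) was the largest of the set. Ube2c had -0.06 in KO and 0.25 in WT (interaction -0.30, SE 0.17). The 95% interval of the interaction lay within 1.5-fold for 26 of 36 members, against 75.2% of all genes. For the other members it reached past that size.

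Regulators and neighbours of these genes were taken from 5 further lists. Among 19 E2F, pocket protein and MuvB regulators 4 rose over the regions and 0 fell, against 7.46% of all genes called. E2f3, an activator E2F, had averages of 8.70, 8.78, 8.65 and 8.52 in KO and 8.28, 8.29, 8.18 and 8.38 in WT, a rise of 0.38 (SE 0.0609, limma adjusted p = 0.00115). Lin37, a MuvB subunit, had 8.85, 8.86, 8.91 and 8.85 in KO, against 8.58, 8.55, 8.51 and 8.50 in WT, a rise of 0.33 (SE 0.0434, limma adjusted p = 0.000212). KO values were all above WT values in both genes. Both were called in each of 8 fits that left out 1 averaged sample. With the Y-linked mean as covariate, fitted to the arrays without averaging, both were called too (0.34 each, limma adjusted p = 0.013 for E2f3 and 0.000791 for Lin37).

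Lin54, the DNA-binding MuvB subunit, and E2f6, a repressor E2F, also rose, but were not called under each setting. Lin54 rose by 0.21 (limma adjusted p = 0.0138), and the covariate gave 0.18 with an adjusted p of 0.177. E2f6 rose by 0.22 (limma adjusted p = 0.0301), and the covariate gave 0.13 with an adjusted p of 0.387, while 3 of 8 left-out fits called it. Without KO replicate 1 neither gene was called, and E2f6 was not called without KO replicates 2, 3 or 4 or WT replicate 1 either. In frontal tissue alone Lin37 (0.43), E2f6 (0.55), E2f3 (0.37) and Lin54 (0.33) rose, and of these Lin37 was called with the covariate (0.44, limma adjusted p = 0.0388). Leaving out 1 frontal sample at a time, Lin37 and E2f6 were called in 8 of 8 fits, Lin54 in 3 of 8 and E2f3 in 4 of 8. E2f6 was not called in parietal or occipital tissue, and its interaction was 0.53 (limma adjusted p = 0.0642). In parietal tissue Lin37 rose by 0.31 (limma adjusted p = 0.0318), a call kept in 2 of 8 left-out fits and not with the covariate (adjusted p = 0.0525). In WT E2f3 was higher in frontal than in occipital tissue by 0.37, and this was called in 4 of 8 left-out fits.

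Of the other lists, 1 of 13 cell cycle inhibitors, 1 of 11 G1 cyclins, kinases and phosphatases, 1 of 20 other replication genes and 1 of 37 other mitosis genes fell over the regions, and 0 rose, against 7.46% of all genes called. Gins2, a subunit of the GINS complex that works with the MCM helicase, had 8.06, 8.12, 8.10 and 8.15 in KO, against 8.26, 8.26, 8.31 and 8.29 in WT (-0.18, SE 0.0435, limma adjusted p = 0.0213), and the covariate gave -0.21 with an adjusted p of 0.00874. Without KO replicate 1, KO replicate 3 or WT replicate 3 it was not called. Cdkn1c, the inhibitor p57, had 9.76, 9.99, 9.83 and 9.68 in KO and 10.18, 9.96, 10.13 and 10.33 in WT, with 1 KO value inside the WT range (-0.33, limma adjusted p = 0.0146), and it was not called with the covariate (adjusted p = 0.136), without KO replicate 1 or without KO replicate 4. Cdk6, a G1 kinase (-0.19, limma adjusted p = 0.0381), and Racgap1 of the midzone (-0.17, limma adjusted p = 0.0462) lost their calls in 6 and 7 of the 8 left-out fits and with the covariate, where their differences were -0.19 and -0.22. Of the 20 other replication genes 15 were below 0 (median -0.07), and of the 37 other mitosis genes 29 (median -0.05).

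At E14.5 no gene of these lists was called, as was the case over the whole table. Cdkn1c was 0.76 there (SE 0.215, limma adjusted p = 0.85) and Cdkn1a, the inhibitor p21, 0.79 (SE 0.205, limma adjusted p = 0.85). Among 12 radial glia markers 6 rose over the regions at P0.5 and 0 fell (median 0.20), against 7.46% of all genes called, among them Slc1a3 (0.39), Pax6 (0.34), Hes1 (0.32) and Sox2 (0.22). With the covariate none of these 4 was called, at differences of 0.40 for Slc1a3, 0.32 for Pax6, 0.29 for Hes1 and 0.10 for Sox2. Pax6 and Hes1 were called in each of the 8 left-out fits, and Sox2 and Slc1a3 were called in 6 and 4 of the 8 left-out fits. Of 6 intermediate progenitor markers 0 were called (median -0.02). The levels of these markers stand beside the members' differences and their part in them was not tested.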

How the data were processed

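Total RNA of mouse cortex was hybridised to Affymetrix arrays. The authors deposited log2 signals, normalised by RMA in Affymetrix Expression Console 1.1 per the submitters' processing notes. The labels' protocol names the Gene 1.0 ST type throughout, whereas the E14.5 values carry the identifiers of a different array type, so the stages were analysed apart. The tables held 45101 (E14.5) and 35557 (P0.5) probe sets, of which 34958 and 21789 named 1 gene, 932 and 1621 several, and 9211 and 12147 none. For each gene the brightest probe set naming only that gene was kept, giving 18194 and 19938 genes, with no filter on dim genes.

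Groups were taken from the sample titles. limma 3.58.1 (R 4.3.3; lmFit, eBayes with an intensity trend, two-sided) was fitted to all genes, on the 6 E14.5 arrays and on the 24 P0.5 arrays as 6 groups. For values over the regions, the 3 arrays with 1 number and genotype were averaged before the fit. By the Y-linked levels, such an average did not always stand for 1 animal. The exception was the fit with the Y-linked covariate, which took the 24 P0.5 arrays without averaging. P-values were Benjamini-Hochberg adjusted over all genes and called under 0.05. The fits were tested on simulated data. Intervals are 95% intervals.

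The members and gene lists were chosen with earlier results of these data known. Members with values in each array were the 4 with the smallest p and the 1 with the largest difference in a comparison, and others were added where a statement rested on them. Of each pathway list up to 4 called genes were named, or up to 2 by smallest p where none was called. Marker genes were named from those called over the regions. Alternatives were averaging a gene's probe sets, dropping the dimmest 30% of genes, array medians subtracted, no trend, a 1.5-fold minimum, array weights, the replicate number as a block, a fit of only the arrays compared, the mean of the Y-linked genes as a covariate, and leaving out each replicate.

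At E14.5 the deviations of same-numbered KO and WT samples from their group means correlated at 0.125, 0.285 and 0.445, each best with its own number. These pairs entered only the counts by pair and the fit with the replicate number as a block. All other E14.5 errors, p-values and intervals came from the fit without pairs. At P0.5 the lowest such correlation was -0.471, in frontal tissue, and the numbers were not taken as pairs.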

Additional observations from a re-analysis of the deposited data

Results flagged for a closer look

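In 126 sets of 4 samples the highest or lowest sample was tested for standing apart, the gap to its nearest sample taking more of the range than Dixon's 95% critical value. This was found in 11. Chance gives about 1 in 20 for a set taken alone, but the sets share arrays and are not independent, so no excess is read from the count. In parietal WT, replicate 3 stood above the other 3 in the mean of all members (8.10, nearest 7.86), in Mcm5 (8.45, nearest 8.21), in Mcm6 (8.81, nearest 8.65) and in Rrm2 (9.0, nearest 8.71). In parietal KO, replicate 2 stood above the others in Cenpf (7.78, nearest 7.15), Kif11 (8.19, nearest 7.40) and Rrm2 (8.89, nearest 8.42). Kif11 was high in occipital KO replicate 1 (7.73, nearest 7.26), and Mcm7 in frontal WT replicate 1 (9.42, nearest 9.03). Mcm3 was low in frontal KO replicate 4 (7.43, nearest 7.63). Tyms was low in occipital WT replicate 2 (7.43, nearest 7.49), where the other samples lay very close together.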

How the results depend on the processing

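The 0 of 36 members called became 6 in parietal tissue with array weights (Rrm2 -0.35, limma adjusted p = 0.00353), which called 6.22% of all genes. Over the regions it became 4 with array weights (9.5% of all genes called), 1 without the dimmest genes (Mcm3, limma adjusted p = 0.0419; 10.9%) and 1 with the replicate number as a block (Mcm3, limma adjusted p = 0.0445; 6.51%). The causes were not tested. Leaving out 1 replicate gave 0 to 1 called members in parietal tissue, 0 to 2 over the regions and 0 to 2 for frontal against occipital tissue in WT, and 0 in the other 5 comparisons. In the other comparisons the block called 0 members. With the mean of probe sets the mean of the members was 7.70 in E14.5 KO, 7.69 in E14.5 WT and 7.76 in occipital WT. With the Y-linked covariate the calls over all genes fell to 247 in frontal tissue, against 1499 without it, and to 824 over the regions, against 1488. Over the regions the covariate fit also took the arrays without averaging, so those counts differ in more than the covariate. The P0.5 differences are mostly smaller than the spread between samples of a group. At E14.5, with 3 samples a group, the intervals of the fit without pairs are wide. The labels give neither sex nor animal, and whole-tissue arrays do not separate cell number from RNA per cell.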

Other observations

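Outside the cell cycle, several cell type markers were called over the regions at P0.5. Called were 3 of 9 microglial, 1 of 7 blood vessel and 2 of 7 cortical neuron markers, against 7.46% of all genes. The microglial complement genes C1qa (0.29), C1qb (0.47) and C1qc (0.53) rose in KO, and Kdr, the VEGF receptor of blood vessels, fell by 0.66 on the log2 scale. With the Y-linked mean as covariate, fitted without averaging the arrays, none of these 4 was called, at differences of 0.29, 0.41, 0.49 and -0.62. Kdr was called in each of 8 left-out fits, C1qa and C1qb in 7 and C1qc in 2. Neurod6, a transcription factor of cortical excitatory neurons, fell by 0.40 on the log2 scale (limma adjusted p = 0.000139), and it was called with the covariate (-0.45, limma adjusted p = 0.000644) and in each of 8 fits that left out 1 averaged sample. Bcl11b of the same list rose by 0.18 (limma adjusted p = 0.0342), but was called in 1 of those 8 fits and not with the covariate. Of the 7 cortical neuron markers 4 lay above 0 and 3 below, with a median of 0.03. Drd1, a dopamine receptor of striatal and deep cortical neurons, fell by 0.91 on the log2 scale, was called with the covariate (-0.86, limma adjusted p = 2.18e-07) and in each of those 8 fits. Among 6 striatal markers 2 rose and 2 fell.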
